A study of Mus musculus with 36 samples.

Results

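Levels of the genes that make up the tumour necrosis factor (TNF) and NF-kappaB pathway were followed in the spleens of 36 mice, 18 with arthritis (ART) and 18 without (NON). The members are the 10 genes Tnf, Tnfaip3, Nfkbia, Nfkb1, Nfkb2, Relb, Rel, Rela, Birc3 and Traf1, taken with all probe sets that name only one of them in the platform annotation. A probe set is the group of short oligonucleotides that reads 1 transcript on the array. Of the 10 genes, 9 had such a probe set, 17 probe sets in all among the 45101 on the array, and Nfkb1 was not analysed here. All 17 passed the filter on low signal that left 27022 probe sets for testing. Each array was hybridised with total RNA of 1 spleen from an F2 mouse 4 months old. The series title gives the arthritic mice as deficient for the interleukin 1 receptor antagonist, and the labels give no genotype, sex, strain, arthritis score or treatment for any animal in either group.

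TNF is a cytokine that, by binding its receptors, recruits adaptors such as Traf1 and Birc3 and activates kinases that lead to degradation of the inhibitor Nfkbia. The transcription factors that the inhibitor held in the cytoplasm then enter the nucleus as pairs of Rela, Rel and the product of Nfkb1 (the canonical branch). A slower branch, driven by receptors such as Cd40 and Ltbr, processes the Nfkb2 product and releases it together with Relb, and it is needed for the build-up of B cell follicles and stroma in the spleen. Nfkbia, Tnfaip3, Birc3, Traf1, Nfkb2, Relb, Rel and Tnf are themselves known targets of NF-kappaB, so the pathway writes its own inhibitors as well as its own subunits.

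The start regions of 4 members are shown because they hold the kappaB consensus, the sequence to which NF-kappaB binds. Windows of 250 bases before an annotated start (RefSeq, build GRCm38.p6) were found for 8 of the 10 members, 11 windows in all. Each sequence runs 5′ to 3′ on the gene's own strand and ends at the base before the start, and the capitals mark matches to the kappaB consensus on either strand, with overlapping matches counted.
Nfkb2, chr19:46304487-46304736, plus strand: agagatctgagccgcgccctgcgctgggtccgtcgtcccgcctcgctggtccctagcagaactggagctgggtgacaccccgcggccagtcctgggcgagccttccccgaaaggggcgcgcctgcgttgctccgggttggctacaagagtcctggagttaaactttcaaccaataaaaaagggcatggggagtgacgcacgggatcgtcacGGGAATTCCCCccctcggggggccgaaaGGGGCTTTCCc
Nfkbia, chr12:55492648-55492897, minus strand: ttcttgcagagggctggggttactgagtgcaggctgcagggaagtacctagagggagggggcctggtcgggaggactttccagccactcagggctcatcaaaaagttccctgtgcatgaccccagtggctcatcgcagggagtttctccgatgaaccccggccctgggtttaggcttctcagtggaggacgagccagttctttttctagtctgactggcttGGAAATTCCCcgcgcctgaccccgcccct
Tnfaip3, chr10:19015411-19015660, minus strand: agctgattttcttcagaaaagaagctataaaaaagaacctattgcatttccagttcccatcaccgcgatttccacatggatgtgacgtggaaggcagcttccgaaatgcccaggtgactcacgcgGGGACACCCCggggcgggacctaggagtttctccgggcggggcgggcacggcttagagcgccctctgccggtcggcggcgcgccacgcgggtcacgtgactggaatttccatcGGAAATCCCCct
Rel, chr11:23770970-23771219, minus strand: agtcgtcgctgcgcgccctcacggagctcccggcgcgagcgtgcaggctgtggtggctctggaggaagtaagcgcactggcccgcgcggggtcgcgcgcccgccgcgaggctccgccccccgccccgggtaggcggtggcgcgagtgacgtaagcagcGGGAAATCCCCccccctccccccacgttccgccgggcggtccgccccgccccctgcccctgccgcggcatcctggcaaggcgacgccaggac

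The consensus was present in 4 of the 8 member genes with a window, against 4.46% of 27025 genes in the table, and in 6 of the 11 windows, against 3.90% of 32851 windows. In Nfkb2 the printed window held 3 matches, a pair of them overlapping, with the nearest ending 2 bases before the start. A second start of Nfkb2 held the kappaB element of the immunoglobulin kappa enhancer letter for letter, an element found in 0.140% of all windows on either strand. The match of Nfkbia lay 29 to 20 bases before the start, and Tnfaip3 held matches at 12 to 3 and at 125 to 116 bases. In Rel 2 overlapping matches spanned 92 to 82 bases before the start. The windows used for Tnf, Rela, Birc3 and Traf1 held no match, which says only that these letters are not in these windows. Tnf carried the letters TATAAA 29 to 24 bases before its start, as did 12.4% of all windows at some position on either strand. A match to the consensus is a description of the sequence, and no binding was measured.

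Markers of spleen cells were well measured on the arrays, with mean log2 levels of 13.11 for Cd79b and 13.09 for Ms4a1 of B cells and of 11.47 for Cd3d of T cells. The median intensity of an array lay between 110.6 and 183.2. The arrays fell into 3 clusters by their hybridisation controls (RNAs added to every sample before hybridisation), with 9 ART and 4 NON arrays in cluster A, 6 and 10 in cluster B and 3 and 4 in cluster C. The labels name no batch, so these are called spike-in clusters. As a measure of RNA integrity, the Gapdh signal at the 3′ end over that at the 5′ end was 0.751 ± 0.0589 (SD, n = 13) in cluster A, 1.004 ± 0.0907 (SD, n = 16) in B and 0.911 ± 0.0611 (SD, n = 7) in C. Pancreas transcripts were high on 3 arrays, ART replicate 8 and NON replicates 5 and 6. The spleens were measured whole, so fewer cells of a type and less RNA per cell cannot be told apart in any result.

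Levels are given as log2(intensity + 16) for the probe set of each gene with the highest mean over all arrays, unless another is named. Tnf, the ligand, ranged in ART spleens from 5.02 through a median of 7.10 to 8.22, and in NON spleens from 4.54 through 7.25 to 7.94. These ranges correspond to intensities from 16.6 to 283.0 and from 7.31 to 230.2. The groups covered nearly the same span, with low arrays in each. Over all 36 arrays the standard deviation of Tnf was 0.92, larger than that of 98.5% of the tested probe sets. Its mean of 6.89 lay just above the filter at 6.49, and the part of noise at low signal in this spread was not tested. ART minus NON was -0.06 (SE 0.30, 95% interval -0.66 to 0.54, limma adjusted p = 0.946), so a difference of that size in either direction was not detectable with these arrays.

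The inhibitors came next. Tnfaip3 encodes the ubiquitin-editing enzyme A20, which shuts off signalling downstream of the TNF receptor. Its levels ran from 9.84 through 10.29 to 10.68 in ART and from 9.79 through 10.16 to 10.71 in NON spleens. The groups overlapped almost entirely, with a difference of 0.07 (SE 0.08, limma adjusted p = 0.691). The other Tnfaip3 probe set ran from 7.92 through 8.70 to 9.50 in ART and from 7.24 through 8.20 to 9.20 in NON spleens. ART spleens were on the whole higher by this probe set, although the ranges overlapped. Its difference of 0.48 (SE 0.14, limma adjusted p = 0.101) was the nearest to the threshold among the 17. It passed with an adjusted p of 0.0354 when NON replicate 2 was left out, and also within spike-in cluster B, as described below. The 2 probe sets of Tnfaip3 correlated only at r = 0.284 over the 36 mice, with the group means taken out. The difference by this other probe set was 0.35 with the spike-in cluster as a block, and 0.07, 0.53 and 0.38 within clusters A, B and C.

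Nfkbia, the inhibitor that holds the canonical dimers in the cytoplasm, ran from 13.76 through 14.06 to 14.51 in ART and from 13.69 through 14.14 to 14.46 in NON spleens. Neither group stood higher, and the difference was -0.02 (SE 0.07, 95% interval -0.16 to 0.12, limma adjusted p = 0.932). The other 4 Nfkbia probe sets correlated with this one at r between 0.385 and 0.490, and their differences lay between -0.17 and -0.05 with none past the threshold.

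Among the transcription factors, Nfkb2, the precursor of the noncanonical subunit p52, ran from 9.43 through 10.45 to 10.98 in ART and from 9.99 through 10.41 to 10.97 in NON spleens. Its lowest values were those of ART spleens, and the medians were close. The difference was -0.03 (SE 0.11, limma adjusted p = 0.919). Relb, its usual partner, ran from 9.80 through 10.30 to 10.75 in ART and from 9.72 through 10.22 to 10.67 in NON spleens. The ranges of Relb were again nearly the same, and ART minus NON was 0.08 (SE 0.09, limma adjusted p = 0.682).

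Rel, the c-Rel subunit of lymphocytes, ran from 7.33 through 8.01 to 8.70 in ART and from 7.01 through 7.66 to 8.43 in NON spleens. Most ART spleens lay above the NON median, with overlap across most of the range. The difference of 0.27 (SE 0.11, 95% interval 0.03 to 0.50) did not pass the threshold over all probe sets (limma adjusted p = 0.250). Within clusters A, B and C it was -0.17, 0.49 and 0.23, and with the B cell, T cell and erythroid scores described below as covariates it was 0.08 (SE 0.10). Rela, the p65 subunit, ran from 11.37 through 11.58 to 11.93 in ART and from 11.27 through 11.64 to 12.01 in NON spleens. This was a narrow span in each group, and its difference was -0.05 (SE 0.06, 95% interval -0.18 to 0.08, limma adjusted p = 0.738).

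Of the receptor-proximal regulators, Birc3, the ubiquitin ligase cIAP2, ran from 11.77 through 12.32 to 12.80 in ART and from 11.65 through 12.23 to 12.65 in NON spleens. The ranges overlapped widely. The difference was 0.12 (SE 0.09, limma adjusted p = 0.537), and 0.23 (SE 0.07, limma adjusted p = 0.211) with the spike-in cluster as a block. The other Birc3 probe set correlated with this one at only r = 0.175, the lowest of the 8 such pairs within a member gene. It differed by 0.08 (SE 0.16, limma adjusted p = 0.849), and by 0.06 with the block. Traf1, an adaptor that joins Birc3 to TNF family receptors, ran from 8.85 through 9.88 to 10.73 in ART and from 9.35 through 10.27 to 10.83 in NON spleens. ART spleens were lower on the whole by this probe set, by -0.38 (SE 0.14, limma adjusted p = 0.179). The other Traf1 probe set differed in the opposite direction, by 0.16 (SE 0.13, limma adjusted p = 0.537), and the pair correlated at r = 0.399. No direction for Traf1 can be given from these probe sets.

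**Figure D1:**
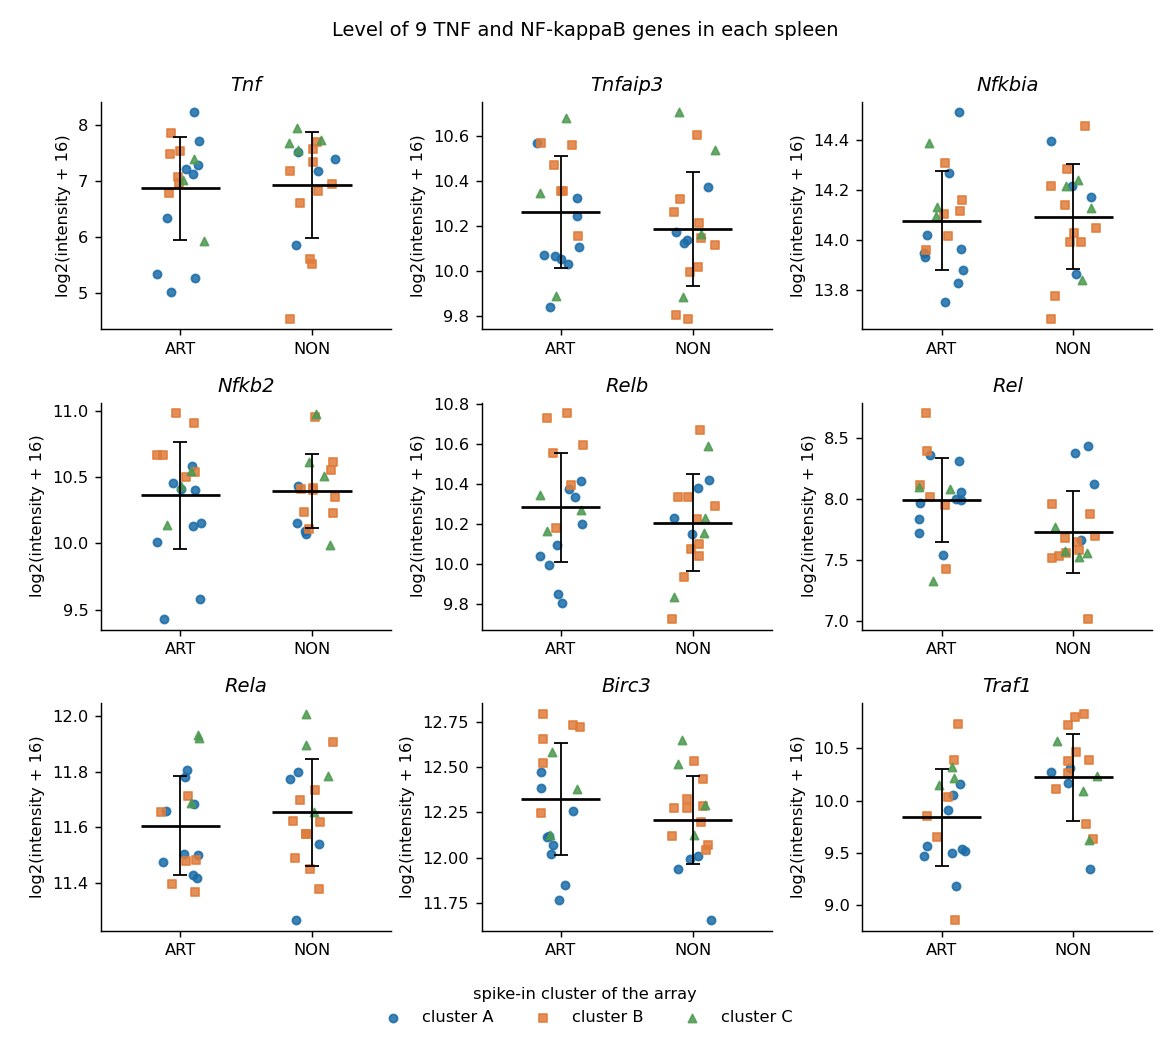
Log2(intensity + 16) of 9 member genes in each of 36 spleens, by group, with the mean as a bar and the SD as whiskers (n = 18 per group). Symbols give the spike-in cluster of the array, and the groups overlap for every gene.

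By limma, 0 of the 17 member probe sets passed the adjusted threshold of 0.05 between ART and NON, where 0.0481% of all tested probe sets (13 of 27022) passed. At an unadjusted p under 0.05 there were 3 of 17 members, against 15.7% of all tested probe sets. They were Rel and the other probe set of Tnfaip3, with ART above NON (as 8.86% of all at that p), and the first probe set of Traf1, with ART below NON (6.87% of all). The median difference over the 17 was -0.02, beside 0.003 over all tested probe sets. ART was the higher group for 8 of the 17, beside 50.9% of all. The members' share was thus near that of the array at large. The Gapdh ratio was 0.854 ± 0.143 (SD, n = 18) in ART and 0.934 ± 0.120 (SD, n = 18) in NON spleens, and the mean B cell score, described below, was 0.05 and -0.05. Their part in the differences was not tested beyond the fits with these measures as covariates, in which 0 of 17 members passed.

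**Figure D2:**
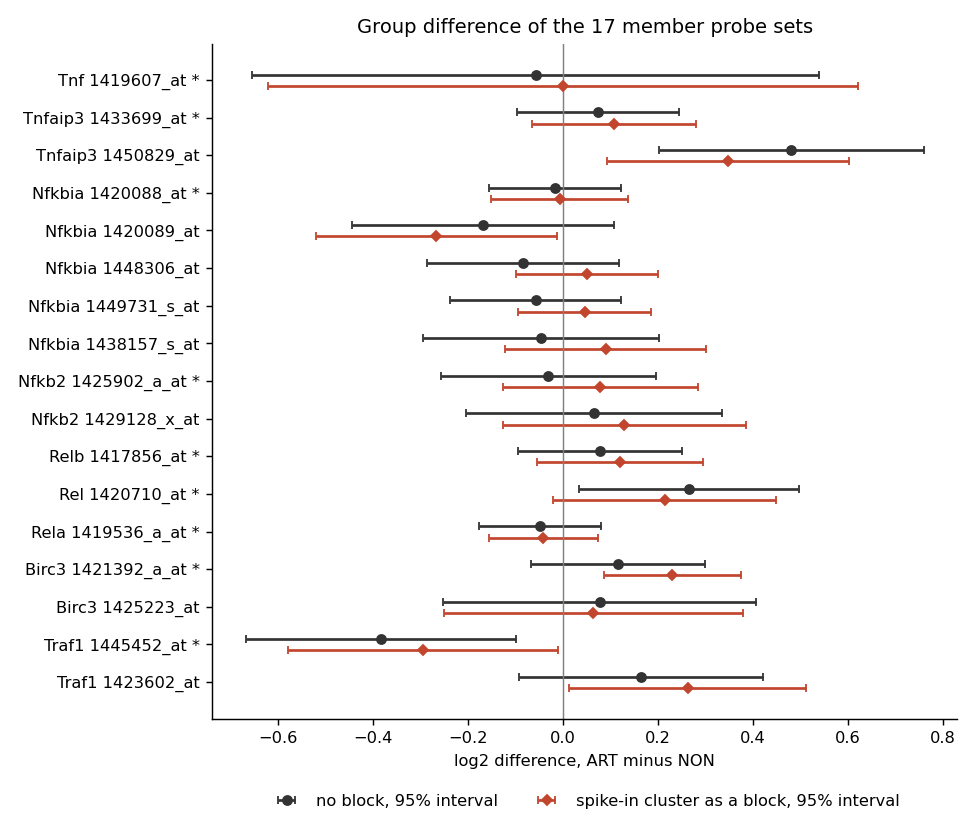
Log2 difference, ART minus NON, of the 17 member probe sets with 95% intervals, without a block (dark dots) and with the spike-in cluster as a block (red diamonds). Asterisks mark the probe set with the highest mean of its gene. The intervals without a block leave out 0 for 3 probe sets, and none passed the threshold after adjustment.

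Spike-in clusters separated more of the members than arthritis did. Of the 17 probe sets, 10 differed between the clusters with group in the model, beside 48.1% of all tested probe sets, so the members were not set apart from the rest of the array in this. Among the 9 probe sets that stand for a gene these were Birc3, Nfkb2 and Rela. By this probe set Birc3 was 0.41 higher in cluster B and 0.39 higher in C than in A (limma adjusted p = 0.000116), but its other probe set, which also passed, was at -0.17 in B and 0.44 in C (limma adjusted p = 0.0377). Nfkb2 was higher by 0.41 and 0.33 (limma adjusted p = 0.00890), and its other probe set, which passed as well, was at 0.32 in B and -0.12 in C (limma adjusted p = 0.0377). No direction can thus be given for Birc3 in cluster B or for Nfkb2 in cluster C. Rela was higher in C only, by 0.24, and -0.03 in B (limma adjusted p = 0.00732). The first probe sets of Nfkbia and Tnfaip3 did not pass (limma adjusted p = 0.712 and 0.367), but all their other probe sets did. Those of Nfkbia lay between -0.29 and 0.53 in B and between -0.60 and 0.36 in C (limma adjusted p from 1.55e-05 to 0.0123). No direction can be given for Nfkbia either. The other Tnfaip3 probe set was at -0.49 in B and -0.44 in C (limma adjusted p = 0.00972). Clusters also differ in the Gapdh ratio given above, whose part in the result was not tested.

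Within cluster B, 3 member probe sets were higher in the 6 ART than in the 10 NON spleens by limma, beside 1.28% of all probe sets called higher there and 2.73% (738) called in either direction. Birc3 ran from 12.25 through 12.69 to 12.80 in these ART and from 12.04 through 12.27 to 12.53 in these NON spleens, higher in ART by 0.36 (SE 0.09, limma adjusted p = 0.0428). The other Birc3 probe set differed there by 0.08 (SE 0.24, limma adjusted p = 0.888). Nfkb2 by its other probe set was higher by 0.53 (SE 0.13, limma adjusted p = 0.0390), and Tnfaip3 by its other probe set by 0.53 (SE 0.12, limma adjusted p = 0.0318). The first probe sets of Nfkb2 and Tnfaip3 differed there by 0.28 and 0.29 without passing (limma adjusted p = 0.159 and 0.150). ART values of the 3 that passed lay in the upper part of the range in each case, with some overlap. Cell type markers moved with them in cluster B. All 4 measured B cell markers were higher in ART, by 0.30 to 0.54, and all 4 erythroid markers lower, by -1.01 to -0.45. The B cell score ran from -0.10 through 0.32 to 0.53 in these ART and from -0.40 through -0.14 to 0.14 in these NON spleens, and the part of these markers in the result was not tested. The count depended on single arrays: it was 0 without ART replicate 14, 15, 16 or 18 or NON replicate 8, 14 or 17, and 6 without ART replicate 17. In the test of whether the group difference itself varied with the cluster, 0 of 17 members passed, where 0.037% of all probe sets did. The nearest was the other probe set of Nfkb2 (limma adjusted p = 0.167), and 3 members had an unadjusted p under 0.05, beside 16.7% of all.

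The members nevertheless varied together from mouse to mouse. With the group means taken out, 34 of the 36 pairs of member genes correlated positively over the 36 mice, with a median Pearson r of 0.319. Over all 77208951 pairs of tested genes the median was 0.005 and 50.7% were positive. By a permutation test within groups, adjusted over the 36 pairs, 11 pairs passed by Pearson r, 10 by Spearman rho and 10 by both, all positive. An r of 0.4 or more, which all 11 had, was reached by 8.04% of all pairs of tested genes.

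The closest pair was Nfkb2 and Relb, the partners of the noncanonical branch, with r = 0.785 and rho = 0.687 (permutation test, adjusted p = 0.000180 for each, the smallest that the permutations can give after adjustment here). Without the 2 mice farthest from the median of Nfkb2, r was 0.726. Within ART r was 0.878 and within NON 0.647, and within spike-in clusters A, B and C it was 0.867, 0.754 and 0.838. By r with Nfkb2, Relb ranked 40 among 12426 other genes, and by r with Relb, Nfkb2 ranked 12.

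Tnfaip3 followed Relb with r = 0.759 and rho = 0.776 (permutation test, adjusted p = 0.000180 for each), and 0.764 without the 2 mice farthest in Tnfaip3. By r with Tnfaip3, Relb ranked 2 among the 12426 other genes. Within ART and NON r was 0.676 and 0.855, and within clusters A, B and C it was 0.644, 0.857 and 0.737. Tnfaip3 and Nfkb2 correlated at r = 0.680 and rho = 0.656 (permutation test, adjusted p = 0.000240 for each), and 0.666 without the 2 farthest mice. These 3 pairs, a triangle of the noncanonical partners and the A20 gene, were the ones past the threshold by Pearson r within ART and within NON alike. Within NON, leaving out the 2 farthest mice lowered Nfkb2 with Relb to 0.341 and Tnfaip3 with Nfkb2 to 0.349, while Tnfaip3 with Relb was 0.760. The triangle rests in part on the choice of probe set. With the mean of all probe sets of a gene, Tnfaip3 and Relb fell to r = 0.418 and Tnfaip3 and Nfkb2 to r = 0.226, the latter no longer past the threshold.

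**Figure D3:**
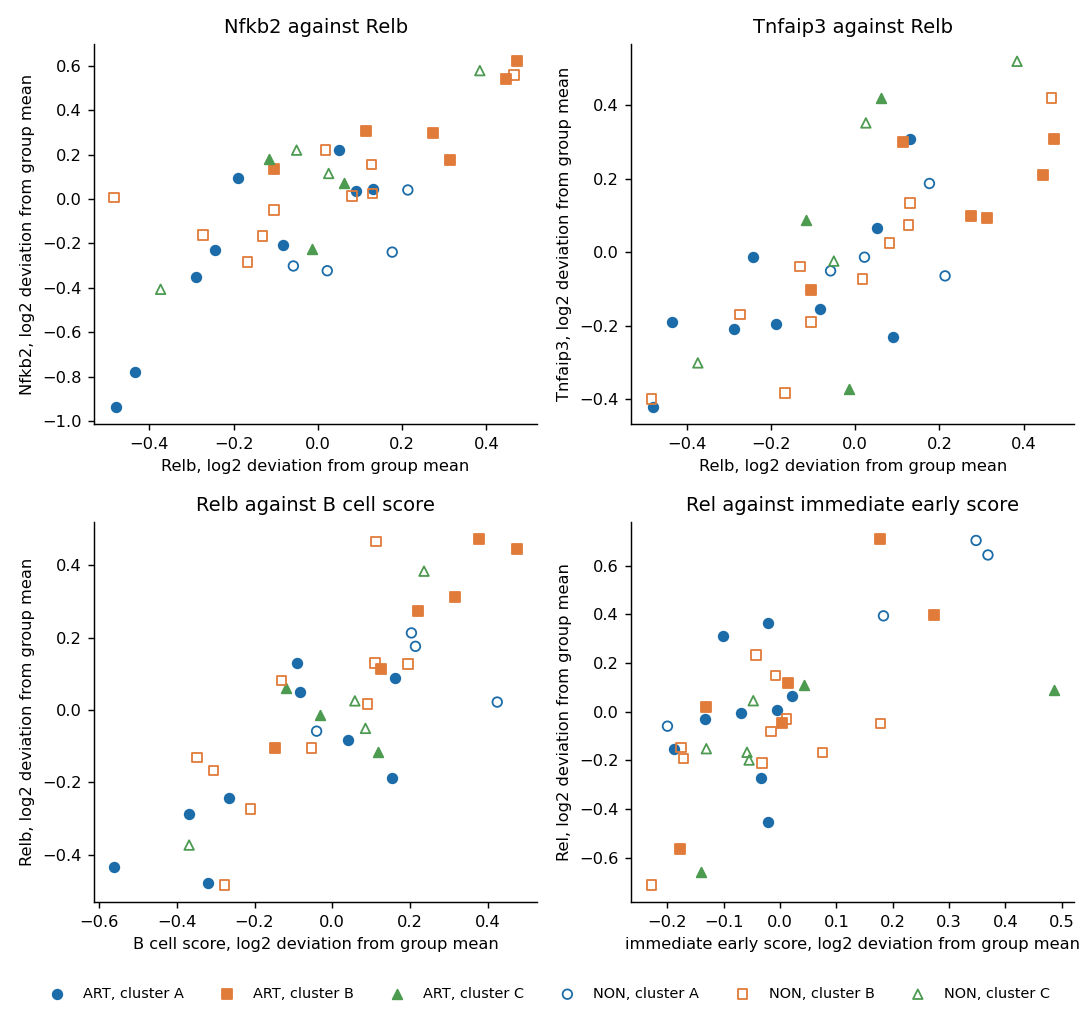
Deviations from the group mean, in log2 units, of Nfkb2 and Tnfaip3 against Relb, of Relb against the B cell score and of Rel against the immediate early score, for 36 spleens (filled ART, open NON, shape for spike-in cluster). Points of each group and cluster run along the same rising band in the first 3 panels.

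Most of the remaining pairs past the threshold joined Nfkbia, Tnf or Birc3 to Nfkb2 or Relb, and none of them held Tnfaip3. Nfkbia with Traf1 and Tnf with Nfkbia held no gene of the triangle. Birc3 correlated with Nfkb2 at r = 0.616 (rho 0.660) and with Relb at r = 0.504 (rho 0.474). Birc3 with Nfkb2 was 0.350 and no longer past the threshold when deviations were taken from the means of each group in each cluster (permutation test, adjusted p = 0.118). With the mean of all probe sets of a gene both pairs lost the threshold, Birc3 with Nfkb2 at 0.325 and with Relb at 0.294 (permutation test, adjusted p = 0.0874 and 0.148). Nfkbia correlated with Nfkb2 at 0.510 (rho 0.496), with Relb at 0.497 (rho 0.499) and with Traf1 at 0.410 (rho 0.506). Tnf correlated with Relb at 0.567 (rho 0.542), with Nfkbia at 0.425 (rho 0.445) and with Nfkb2 at 0.421 (rho 0.341, not past the threshold by rho). Adjusted p-values of these 8 pairs by the permutation test lay between 0.00126 and 0.0455 for r. Without the 2 farthest mice their r ran from 0.300 for Tnf with Nfkb2 to 0.670 for Nfkb2 with Birc3. The 3 weakest were Tnf with Nfkbia, Tnf with Nfkb2 and Nfkbia with Traf1. When each of the 36 arrays was left out in turn, they lost the threshold in 11, 11 and 21 cases. With deviations from group-by-cluster means 13 pairs passed, 8 of them among the 11.

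With the group means alone taken out, the canonical subunits Rel and Rela had no partner past the threshold. Their median r over 8 pairs was 0.192 and 0.260, and they correlated with each other at r = -0.096 (rho -0.075). Relb and Nfkb2 had the highest medians in that form, 0.501 and 0.466, with 5 partners each. With deviations from group-by-cluster means, Rela passed with 3 partners, all in the triangle above: Relb at 0.507, Nfkb2 at 0.480 and Tnfaip3 at 0.410. Their adjusted p-values by permutation test were 0.0124, 0.0176 and 0.0399. Rel passed with 1, Birc3, at 0.506 (permutation test, adjusted p = 0.0176). That Rela stood outside the group thus held only without the cluster adjustment.

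No difference between arthritic and non-arthritic mice was detected in these correlations. The median r was 0.327 within ART and 0.337 within NON, with 4 and 6 pairs past the threshold, and 31 of 36 pairs were positive in both. A permutation test of the difference in correlation between the groups found 0 of 36 pairs after adjustment (lowest adjusted p = 0.882). At an unadjusted p under 0.05 there was 1, Rel with Birc3, at 0.463 in ART and -0.268 in NON (permutation test p = 0.0273).

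**Figure D4:**
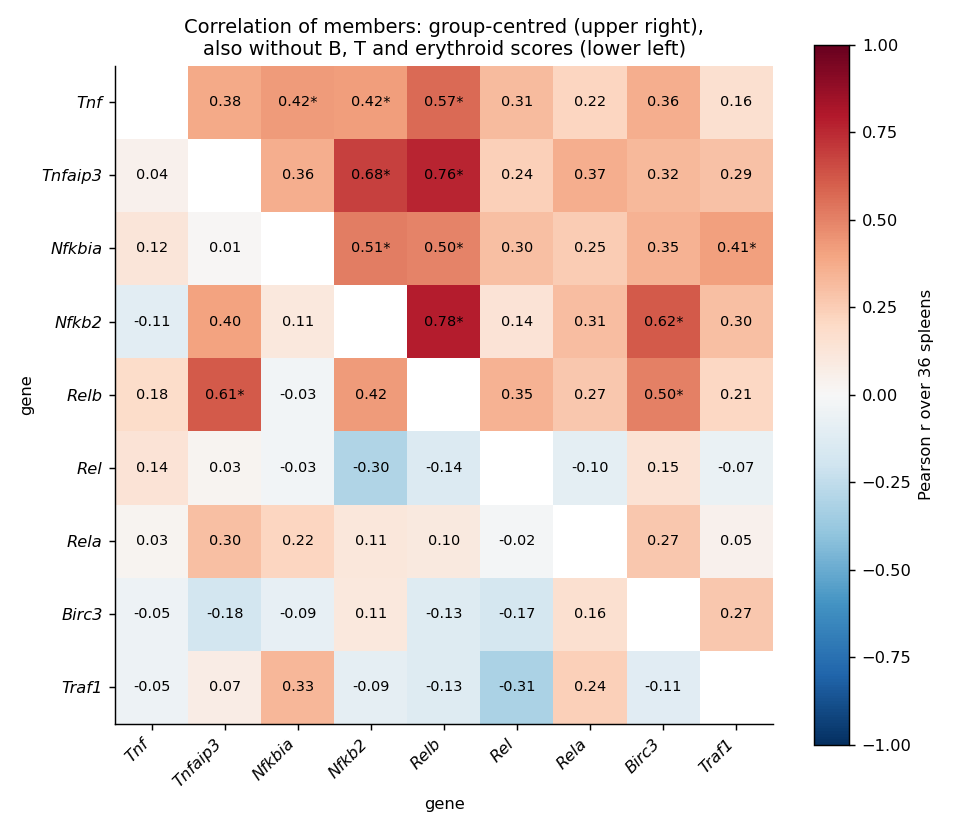
Pearson r between member genes over 36 spleens, with the group means taken out (upper right) and with the B cell, T cell and erythroid scores also taken out (lower left). Asterisks mark an adjusted p under 0.05, which 11 pairs reach above the diagonal and Tnfaip3 with Relb alone below it.

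Averaged over the 9 members as deviations from each gene's mean, ART replicate 5 was lowest at -0.50, followed by ART replicate 7 at -0.42 and ART replicate 4 at -0.40, all in cluster A. At the top were ART replicate 18 at 0.39 and NON replicate 10 at 0.38. Of the 36 spleens, ART replicate 18 also had the highest B cell score, 0.53, and the lowest erythroid score, -1.53. A score is the mean log2 deviation of a list of marker genes. ART replicate 4 had the lowest B cell score, -0.51, and an erythroid score of 0.61. The scores did not follow this order throughout. ART replicate 5 ranked 7 from the lowest by B cell score (-0.27) and 6 from the highest by erythroid score (0.34). NON replicate 10 ranked 29 from the lowest by B cell score (0.19) and 23 from the highest by erythroid score (-0.0070). Without ART replicate 5, Tnf and Nfkb2 had r = 0.309 instead of 0.421.

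Each member was set against 14 measures, namely 11 cell type scores, an immediate early score and the Gapdh and Actb 3′ to 5′ ratios. Of these 126 relations 45 passed by permutation test within groups, adjusted over the 126, and 34 of them also with deviations from group-by-cluster means. All 9 members correlated positively with the B cell score (Cd79a, Cd79b, Ms4a1, Cd22), 7 past the threshold, and with the T cell score (Cd3d, Cd3e, Cd3g, Cd4, Cd8a), also 7. With the erythroid score (Alas2, Slc4a1, Epb42, Klf1) 8 correlated negatively past the threshold. The exception was Rela, at r = 0.162. With the red pulp macrophage score 3 members passed, all negatively. Nfkb2 was at -0.686 and Birc3 at -0.634, beyond their -0.549 and -0.510 with the erythroid score. With the neutrophil score 3 passed, all negatively, with Relb lowest at -0.558. The plasma cell, stroma and dendritic cell scores passed positively with 5, 4 and 2 members. By r among 12427 tested genes, members ranked from 27 (Relb) to 5101 (Traf1) with the B cell score. With the T cell score they ranked from 81 (Nfkb2) to 3998 (Rel). From the most negative r with the erythroid score they ranked from 210 (Relb) to 8929 (Rela). The share of all genes past the threshold was not computed, so the counts alone do not set the members apart.

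Relb followed the B cell score at r = 0.807 and rho = 0.789 (permutation test, adjusted p = 0.000210 and 0.000420), and 0.762 without the 2 farthest mice. It ranked 27 among 12427 tested genes by r with that score. The median over all tested genes was r = 0.086. Within clusters A, B and C it was 0.659, 0.815 and 0.769. Nfkb2 was closest to the T cell score, at r = 0.790 and rho = 0.724 (permutation test, adjusted p = 0.000210 and 0.000420). Without the 2 farthest mice r was 0.699, and within the clusters it was 0.670, 0.538 and 0.932. With deviations from group-by-cluster means this order did not hold, with Nfkb2 at 0.697 with the T cell score and 0.724 with the B cell score. Relb against the erythroid score gave r = -0.647 and rho = -0.645 (permutation test, adjusted p = 0.000280 and 0.00113), and -0.622 without the 2 farthest mice.

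Rel moved with the B cell score at r = 0.556 and the erythroid score at -0.600 (permutation test, adjusted p = 0.00287 and 0.00126), and also with the dendritic cell score at 0.464 and the neutrophil score at -0.455 (permutation test, adjusted p = 0.0163 and 0.0192). By rho these were 0.474, -0.461, 0.443 and -0.353, the last not past the threshold. Its highest correlation was with the immediate early score, genes that are switched on within minutes of a stimulus or of tissue handling, at r = 0.657 and rho = 0.613 (permutation test, adjusted p = 0.000210 and 0.00135). Within clusters A, B and C this was 0.587, 0.705 and 0.685, and without the 2 farthest mice 0.690. No other member passed with that score. Of the genes in it, Rel correlated at 0.59 with Atf3, 0.41 with Egr2, 0.36 with Jun and 0.30 with Fos. It was at 0.21 with Ier2, 0.03 with Egr1 and -0.07 with Dusp1. With deviations from group-by-cluster means these were, in the same order, 0.53, 0.42, 0.20, 0.22, 0.33, 0.43 and -0.09. Egr1 was thus low only with the group means alone taken out. The highest value was that for Atf3, and the part of tissue handling was not tested.

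With the group means alone taken out, Rela was closest to the plasma cell score, r = 0.517 and rho = 0.485 (permutation test, adjusted p = 0.00742 and 0.0138). Without the 2 farthest mice r was 0.485. With deviations from group-by-cluster means Rela was closest to the NK cell score, at 0.611 (permutation test, adjusted p = 0.00168), beside 0.484 with the plasma cell score. The NK cell value was 0.289 and not past the threshold with the group means alone taken out. Birc3 correlated with the stroma score at 0.717 (rho 0.692), which was 0.391 and no longer past the threshold with deviations from group-by-cluster means (permutation test, adjusted p = 0.0626) and 0.657 without the 2 farthest mice. The Gapdh ratio moved with Nfkb2 at r = 0.608 (rho 0.581) and with Birc3 at 0.590 (rho 0.624), and at 0.541 and 0.547 without the 2 farthest mice. With deviations from group-by-cluster means these were 0.326 and 0.015, neither past the threshold. Other members passed only in that form, namely Rela with the Gapdh ratio at 0.478, Nfkbia with it at 0.413 and Traf1 with the Actb ratio at -0.644 (permutation test, adjusted p = 0.0284, 0.0487 and 0.00693). The part of RNA integrity in the levels of these members was not tested.

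**Figure D5:**
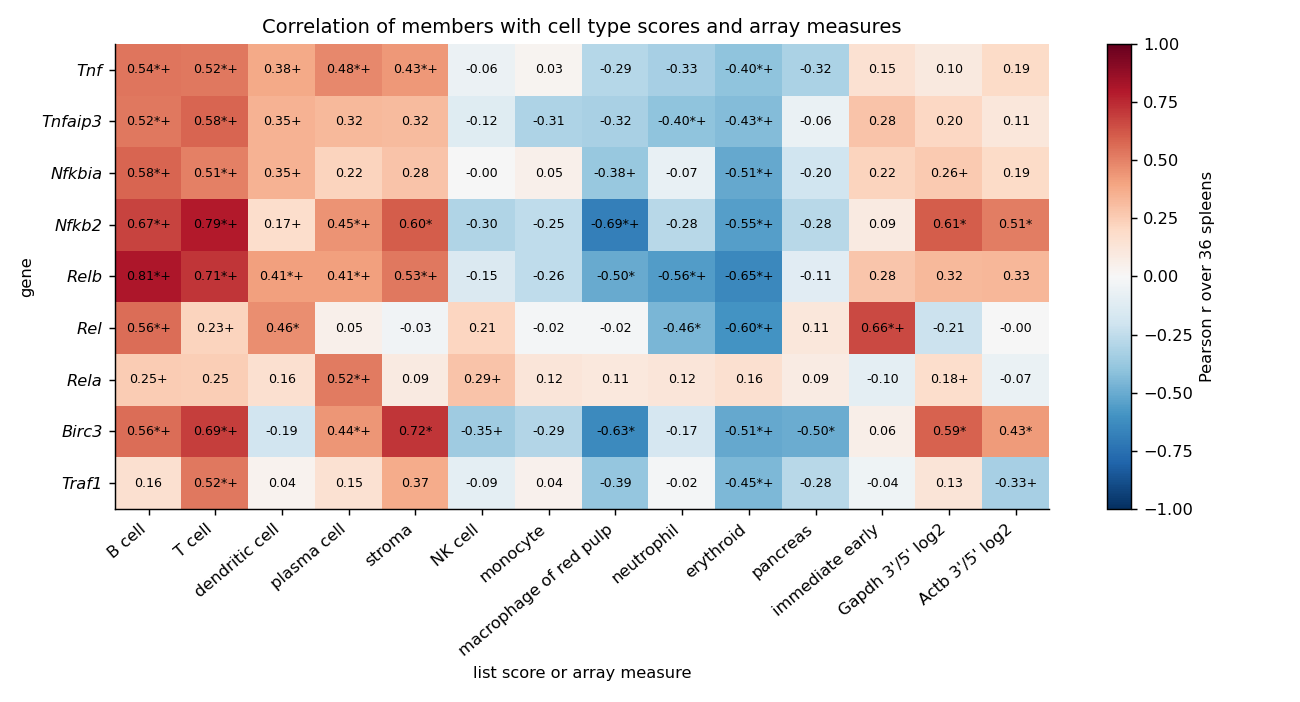
Pearson r of 9 member genes with 11 cell type scores, the immediate early score and 2 array measures over 36 spleens, group means taken out. Asterisks mark an adjusted p under 0.05 and plus signs the same with deviations from group-by-cluster means. B and T cell columns are positive for every member, and the erythroid column is negative for all but Rela.

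When the B cell, T cell and erythroid scores were taken out of each gene by regression, in a step added after seeing the data, the median r over the 36 pairs was 0.026 and 20 were positive. One pair, Tnfaip3 with Relb, remained past the threshold, at r = 0.611 and rho = 0.684 (permutation test, adjusted p = 0.00288 and 0.000720). Nfkb2 with Relb was at r = 0.424 (permutation test, adjusted p = 0.208) and Tnfaip3 with Nfkb2 at 0.399 (permutation test, adjusted p = 0.210). The permutations do not count the 3 degrees of freedom that the scores take. The 3 scores held 70.9% of the variance of Relb within groups and 67.1% of that of Nfkb2. For the other members the share ran from 34.5% for Tnf to 49.6% for Birc3, beside a median of 23.6% over all tested genes.

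By the likeness of their pattern over the 36 mice (Pearson r, group means taken out), the non-member genes nearest to Relb were Irf8, a transcription factor of B cells and myeloid cells, at 0.856, and Blk, a B cell kinase, at 0.839. Nfkbia was nearest to Cd74, the invariant chain of MHC class II, at 0.875, and to Shisa5 at 0.860. Nfkb2 was nearest to Gimap3, a GTPase of lymphocytes, at 0.866, and Mllt6 at 0.864. Rel was nearest to Cd53, a tetraspanin of leukocytes, at 0.803, and to Vim, the intermediate filament vimentin, at 0.752. For Tnfaip3 these were Poglut1 at 0.779 and Slc41a1 at 0.738, and for Tnf Dock2, an activator of Rac in leukocytes, at 0.665 and Zfp629 at 0.650. Birc3 was nearest to Sptbn1, a spectrin, at 0.861 and Tigd2 at 0.858. Traf1 was nearest to Atm, the DNA damage kinase, at 0.871 and Snx29 at 0.862, and Rela to Fiz1 at 0.791 and Mgat1 at 0.772. With deviations from group-by-cluster means, Fiz1 fell to rank 51 for Rela (r = 0.685) and Tigd2 to rank 68 for Birc3 (r = 0.665). The other genes named for a single member ranked between 1 and 23 in that form. Each member is read here by 1 probe set. Its agreement with the gene's other probe sets was r = 0.175 for Birc3, 0.284 for Tnfaip3 and 0.399 for Traf1. For Nfkbia it was 0.385 to 0.490 and for Nfkb2 0.636, so the neighbours of these genes may depend on the probe set. The mean of the 9 members was nearest to Gimap3 at 0.845, Septin6 at 0.838, Cd52 at 0.828, Lpxn at 0.827, Cytip at 0.818 and Blk at 0.813.

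Other genes of the pathway were read from lists of 60 genes, of which 57 had a probe set and 48 passed the filter. By limma, 0 of the 48 passed the adjusted threshold (0.0481% of all tested probe sets did), and at an unadjusted p under 0.05 there were 5 higher and 3 lower in ART, where 8.86% and 6.87% of all tested probe sets were. Their median difference was 0.04, beside 0.003 over all tested probe sets, with 30 of 48 above 0, beside 50.9% of all. Among the receptors, 0 of 6 passed. Cd40, through which T cells activate B cells, differed by 0.29 (SE 0.11, limma adjusted p = 0.180). Ltbr, the lymphotoxin receptor, differed by 0.32 (SE 0.12, limma adjusted p = 0.185). Tnfrsf13c, the BAFF receptor of B cells, was at -0.21 (SE 0.12) and Tnfrsf1b, a TNF receptor, at -0.08 (SE 0.08).

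The inhibitors gave 0 of 10. Tnip2 and Tnip1, partners of A20, differed by 0.44 (SE 0.18) and 0.17 (SE 0.08). Otulin, which trims linear ubiquitin chains, was at 0.14 (SE 0.07), and the deubiquitinase Cyld at -0.09 (SE 0.08). The kinases and their subunits gave 0 of 7, with Tab3 at -0.34 (SE 0.13), Tab2 at -0.20 (SE 0.09), Map3k14, the noncanonical kinase NIK, at 0.14 (SE 0.10), and Tab1 at 0.14 (SE 0.12). Of the receptor adaptors 0 of 6 passed, with Traf2 at 0.15 (SE 0.08), Traf5 at -0.13 (SE 0.10), Birc2 at -0.12 (SE 0.11) and Fadd at -0.06 (SE 0.08). All 4 tested ligands were above 0 without passing, at 0.15 (SE 0.13) for Tnfsf13b (BAFF), 0.18 (SE 0.16) for Tnfsf14, 0.04 (SE 0.14) for Lta and 0.02 (SE 0.11) for Ltb. In clusters A, B and C the difference of Cd40 was -0.14, 0.44 and 0.20, and that of Tab3 was 0.40, -0.68 and -0.41, so neither kept 1 direction.

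Of 22 known target genes, 15 were tested and 0 passed. Sod2, the mitochondrial superoxide dismutase, differed by -0.13 (SE 0.06), Bcl2l1, which protects from apoptosis, by -0.22 (SE 0.11), Icam1 by 0.14 (SE 0.10) and Vcam1 by 0.08 (SE 0.07), the last 2 encoding adhesion molecules. Below the filter were 7 targets, all cytokine, chemokine or prostaglandin pathway genes, namely Ccl2, Ccl3, Ccl20, Cxcl2, Csf2, Il6 and Ptgs2. Further cytokine and chemokine targets, with mean levels from 7.07 for Il12b to 11.42 for Ccl5, were among the 15 tested. The ligands Cd40lg and Tnfsf11 were below it too. Chuk, Ripk1 and Traf3 were not analysed here.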

How the data were processed

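Spleen RNA was prepared with Trizol and run, biotin-labelled, on Affymetrix mouse arrays, per the labels' protocols. The deposited values are linear microarray intensity made by the authors with MAS5 of unstated version, per the submitters' processing notes. The trimmed mean (2% of probe sets off each end) was 500.002 on all arrays, which makes 1 scale factor per array. Groups and replicate numbers come from the titles. Nothing says that the mice came from separate litters or cages, so p-values measure the spread between these samples. The design text gives another number of mice than its own group sizes, which are used here.

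Values were analysed as log2(intensity + 16) from the deposited intensity, without normalization between arrays. This scale understates differences of dim probe sets. The 64 control probe sets and those with a mean under the 40th percentile (6.49) were left out, and 34945 probe sets name 1 gene in the platform annotation, which can be old. Groups were compared with limma 3.58.1 in R 4.3.3 (lmFit, eBayes with trend, two-sided, Benjamini-Hochberg over 27022 probe sets, threshold 0.05, 95% intervals). Correlations used 100000 two-sided permutations within groups, adjusted over the 36 pairs or 126 relations. Spike-in clusters are Ward clusters (3) of 18 hybridisation control probe sets. The steps were tested on simulated data. Other steps used numpy 2.4.6, scipy 1.17.1, pandas 2.3.3 and matplotlib 3.10.9 under Python 3.11.15. Alternatives are listed with their effect in the closing section. The number of arrays limits the precision.

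Members, lists and clusters were chosen with earlier results of these data known. Named genes are the members, up to 4 of each pathway list by unadjusted p, the 2 genes closest to each member, the 6 closest to their mean, and at most 2 of each cell type list, the brightest within it. The other genes of scores and those below the filter were named to describe their lists.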

Additional observations from a re-analysis of the deposited data

How the results depend on the processing

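No member probe set passed between ART and NON with a pseudocount of 1 or 64, no filter, a filter at the 60th percentile, quantile normalization, no trend, the cluster block, the Gapdh ratio or the 3 scores as covariates, within clusters A and C, or without the 3 arrays with pancreas transcripts. Over all probe sets these gave 13, 14, 0, 21, 1, 0, 0, 2, 0, 0, 0 and 236 calls, beside 13. Exceptions were cluster B (3) and leaving out NON replicate 2 (1, with 389 over all), so leaving out 1 array gave 0 to 1. With the replicate number as a block 0 of 17 passed (lowest limma adjusted p = 0.0570), with 369 over all probe sets. The numbers were not taken as pairs. Same-numbered arrays correlated at a median r of 0.151, from -0.228 to 0.473 (11 of 18 over 0.1), and 2 arrays correlated best with their own number. The spike-in clusters went in part with the number. ART replicates 1 to 9 lay in A, ART 11 to 13 and NON 9 to 12 in C, and ART 14 to 18 and NON 13 to 18 in B. What same-numbered arrays share was not tested.

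Differences turned sign in 19 of the settings other than leaving out 1 array, each without passing. Within cluster A these were Relb -0.17, Rel -0.17 and Tnfaip3 -0.0566. Within B they were Tnf 0.70, Nfkbia 0.0486 and Nfkb2 0.28, and Birc3 passed at 0.36. Within C they were Rela 0.0110, Nfkbia 0.0988, Birc3 -0.0324, Tnfaip3 -0.0180 and Traf1 0.0975. The Gapdh covariate gave Tnf 0.00156, Nfkbia 0.0173 and Nfkb2 0.103. The cluster block gave Nfkb2 0.0782, the mean of its probe sets 0.0169, the 3 scores Nfkb2 0.0202 and Rela 0.00527, and leaving out the pancreas arrays Tnf 0.00560. Leaving out 1 array gave Tnf -0.198 to 0.0502, Nfkbia -0.0425 to 0.00426 and Nfkb2 -0.0677 to 0.0239. The cause was not tested.

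The count of pairs past the threshold was 9 to 14 in the other settings over all mice, 8 (without ART replicate 2, 4 or 7, among others) to 15 (without ART replicate 13) when 1 array was left out, 1, 7 and 0 within clusters A, B and C, which hold fewer mice, and 1 with the 3 scores taken out. The median r was 0.451 within B, 0.490 within C and 0.0258 with the scores out, and 0.298 to 0.363 when 1 array was left out. Correlations that turned sign were Tnf with Nfkb2 within C (-0.0921) and, with the scores out, Tnf with Nfkb2 (-0.108), Nfkbia with Relb (-0.0274) and Relb with Birc3 (-0.128). Quantile normalization gave 11 member probe sets that differ between clusters, beside 10. Tnf, a dim probe set, had the widest interval of the 17.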
